A study of Homo sapiens with 4 samples.

Results

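DNA replication licensing and fork genes are the genes whose products mark replication origins, load and start the replicative helicase, copy the DNA and keep the fork stable. They were taken here as 56 named genes, found by symbol among the 20323 gene rows of each count file, with the row of highest mean count where a symbol had several rows, and all 56 passed the filter on low counts. The cells came from HCT-8, a line of human colorectal adenocarcinoma, made resistant to 5-fluorouracil. In 2 libraries the cells had received a METTL14 overexpression plasmid (METTL14 is the partner of METTL3 in the enzyme that writes N6-methyladenosine on mRNA), and in the other 2 a negative control plasmid. Both groups were drug-resistant and had been given 100 ug/mL of cycloheximide, which halts elongating ribosomes, so no library stands for untreated or drug-sensitive cells. The work was described as done in independent experiments, but nothing ties a library to a separate culture, and the p-values measure the spread between these libraries.

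In outline, replication begins in G1 phase, when the origin recognition complex (ORC) together with CDC6 and CDT1 loads the ring-shaped MCM2-7 helicase onto DNA, a step called licensing that geminin (GMNN) restrains. In S phase the kinase CDC7 with its activator DBF4, and the factors CDC45, GINS, MCM10 and TOPBP1, turn the loaded ring into a moving helicase. DNA polymerase alpha with primase then lays down primers, polymerases delta and epsilon extend them with the sliding clamp PCNA, which the RFC complex loads, and FEN1 and LIG1 finish the lagging strand. Many of these genes are textbook targets of the E2F transcription factors, and their mRNA is high in dividing cells such as tumour lines.

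The E2F connection is the reason for showing a few promoters. RefSeq promoters (GRCh38.p14) were found for 48 of the 56 genes, the others being DSCC1, FAM111B, GINS4, MCM4, MCM5, POLD3, RPA2 and RPA3. In the 250 bases before the start, an E2F-type motif (any of TTTCCCGC, TTTGGCGC, TTTGCCGC and TTTCGCGC, on either strand) was present in 12 of the 48 (25.0%), against 4.5% of the 10128 promoters of tested genes. The windows below lie upstream of the start, outside annotated exons, and capitals mark the E2F-type match on the printed strand. POLA1, MCM3 and PCNA had the largest fall in their roles among genes with such a window, and MCM6 was added after its 4 matches were seen. 
POLA1 (chrX:24693740-24693829, plus strand): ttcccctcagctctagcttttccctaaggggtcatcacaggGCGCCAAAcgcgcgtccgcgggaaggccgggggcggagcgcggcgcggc
MCM3 (chr6:52284883-52284972, minus strand): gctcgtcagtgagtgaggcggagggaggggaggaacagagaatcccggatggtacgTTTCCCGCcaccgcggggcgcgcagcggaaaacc
PCNA (chr20:5126633-5126722, minus strand): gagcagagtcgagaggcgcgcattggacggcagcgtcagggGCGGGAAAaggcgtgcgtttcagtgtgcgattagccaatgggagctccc
MCM6 (chr2:135876547-135876636, minus strand): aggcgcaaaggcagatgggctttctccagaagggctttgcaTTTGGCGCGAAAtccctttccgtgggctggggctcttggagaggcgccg
In POLA1 and PCNA the match lies on the opposite strand, and the MCM6 window holds 2 overlapping matches on opposite strands. The CCAAT box, bound by NF-Y, was found in 27 of the 48 promoters (56.2%, against 35.2% of tested promoters), and the GC box GGGCGG in 34 (70.8%, against 68.3%). TTTGAA, a core of the CHR element of late cell cycle genes, was found in TOP2A only (2.1% of the 48, against 8.0% of tested promoters). E2F-type matches overlapped a GC box in 2 promoters. These matches are descriptions of letters and were not tested as binding sites.

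Library totals ran from 19206661 to 20161082 expected counts. METTL14 mRNA itself was counted 472 and 598 times in control libraries and 7593 and 8516 times in those given the plasmid (log2 fold change 3.88, SE 0.141, edgeR adjusted p = 7.33e-05). Several epithelial markers were high, with KRT8, KRT18 and KRT19 each at 1007 CPM or more (CPM being counts scaled to library size). EPCAM had a mean of 492.6 CPM in the controls. Intestinal markers were mixed: control means were 107.6 CPM for LGALS4, 94.32 for CDX2, 85.72 for VIL1, 38.7 for CDH17 and 24.88 for CDX1. TFF3 (1.808) and KRT20 (0.4383) were low, and CEACAM5, GPA33 and MUC2 were near 0. Of the 15 epithelial markers, 3 were called lower (KRT8, KRT18 and KRT19, with log2 fold changes of -0.90, -0.92 and -0.39) and 4 higher (CDH17, 1.87, CDH1, 0.74, CDX2, 0.44, and LGALS4, 0.44), and their summed level was 18270 and 11950 CPM in control libraries against 9401 and 9180 CPM. Of 10 leukocyte markers, 2 reached 1 CPM in control libraries and 3 with METTL14, their summed level being 19.6 to 20.55 CPM against 70.15 to 70.54 CPM. Nearly all of that was CD68, and the defining leukocyte gene PTPRC was at 0.05202 CPM or less. Of 10 fibroblast markers, 5 and 4 reached 1 CPM, with summed levels of 15.45 to 18.89 CPM against 31.92 to 33.34 CPM, and of 8 endothelial markers 0 and 1 did, at 0.5132 to 1.901 CPM. PDGFRA and FAP, defining fibroblast genes, were at 0.2055 CPM or less, and the endothelial KDR, ERG and EMCN were at 0 in each library. Among fibroblast markers ACTA2, PDGFRB and COL1A1 were called higher, and COL1A2 (2.735 to 1.578 mean CPM) and COL3A1 (1.702 to 0.908 mean CPM) were lower in mean but not called. Whether these marker differences have a part in the results was not tested.

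Every one of the 56 genes, chosen with earlier results of these data known, was lower with METTL14 than with the control plasmid. All 56 were called at an adjusted p below 0.05 by edgeR, where 28.1% of the 12700 tested genes were called lower and 27.0% higher. The median log2 fold change was -1.55, a 2.93-fold fall, against a median of -0.01 over all tested genes. With METTL14, both libraries lay below both controls for all 56 and above both for none, against 40.0% and 39.8% of tested genes. The fall was at least 2-fold in 44 genes (8.8% of tested genes were called lower to that degree) and at least 4-fold in 14 (1.16%). Among those 14 is POLA2, which did not reach 4-fold when its gene rows were summed (log2 fold change -1.82). When the test asked for a change beyond 1.5-fold, 50 of the 56 still passed as lower, against 10.7% of tested genes, and ORC2, ORC4, TOPBP1, RPA1, RPA2 and TIMELESS did not. Summed, the 56 genes made up 0.695 and 0.606% of control counts, and 0.231 and 0.228% of those with METTL14. In such bulk RNA, fewer cells in S phase and less mRNA per cell cannot be told apart.

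**Figure D1:**
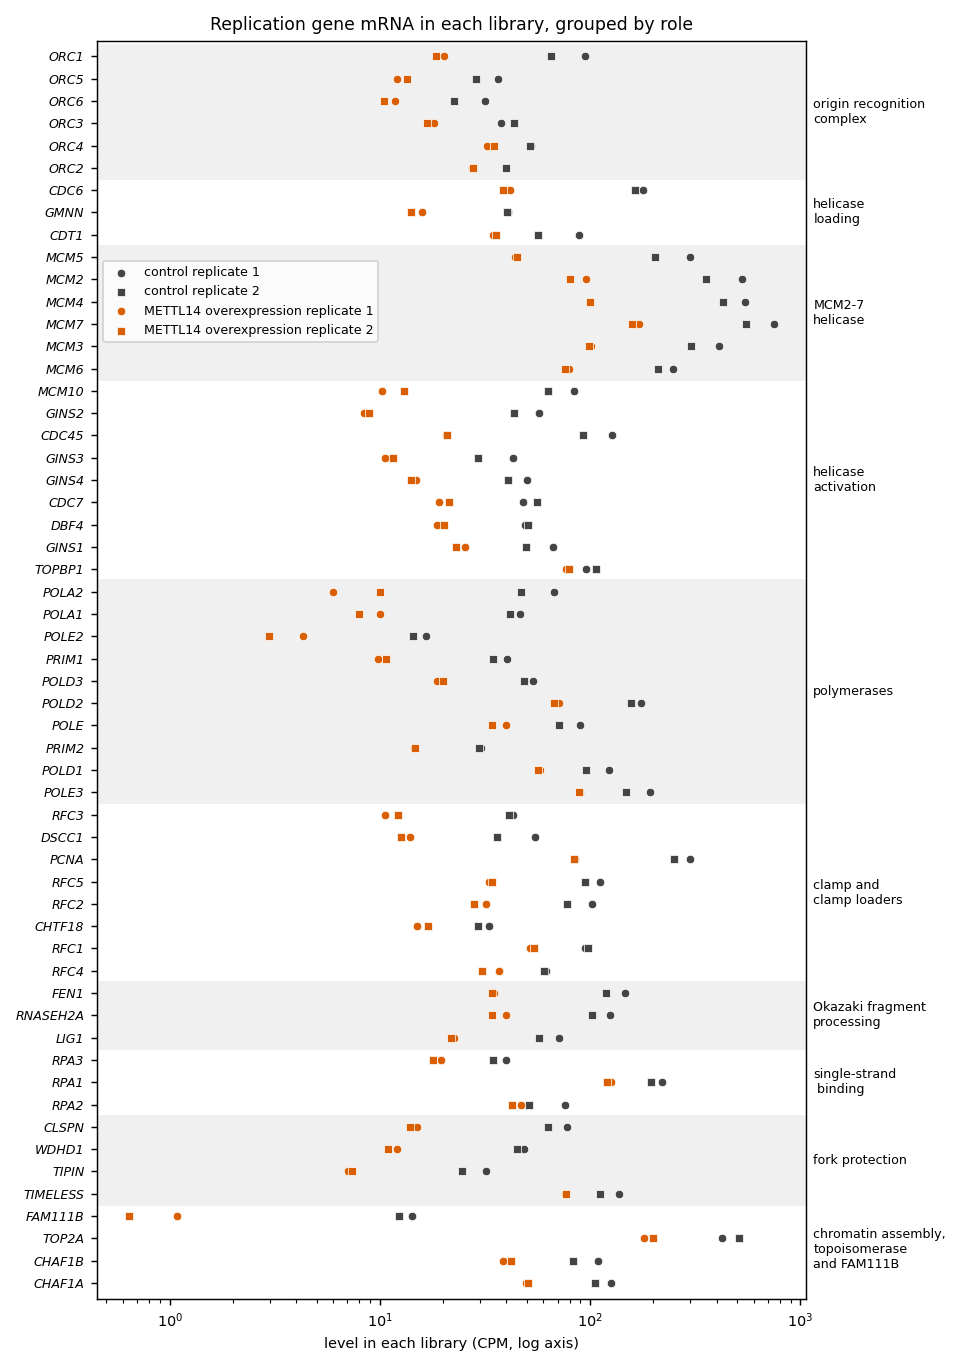
Level of each of the 56 genes (CPM, log axis) in the 2 control libraries (dark) and the 2 METTL14 libraries (orange), grouped by role and ordered by fold change within a role. In each gene both METTL14 points lie left of both control points, the gap being narrowest for RPA2 and TOPBP1 and widest for FAM111B.

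The mRNAs of the 6 origin recognition subunits fell by unequal amounts. ORC1, the subunit whose abundance is known to follow the cell cycle, stood at 94.62 and 65.38 CPM in control libraries and 20.14 and 18.58 CPM with METTL14 (log2 fold change -2.05, SE 0.185, edgeR adjusted p = 0.000204). ORC2, a core subunit, stood at 40 and 39.62 CPM against 27.38 and 27.62 CPM (-0.53, SE 0.107). Replicates of ORC2 lay within 1 CPM of each other, and its groups were well apart, but without either METTL14 library its call was lost (adjusted p = 0.0683 and 0.0564). Log2 fold changes were -0.63 for ORC4, -1.22 for ORC3, -1.35 for ORC5 and -1.28 for ORC6. Scaled to transcript length, the mean levels of the 6 subunits in the controls spanned 7.76 CPM per kb (ORC4) to 25.3 CPM per kb (ORC1). With METTL14 they spanned 5.01 CPM per kb (ORC4) to 6.96 CPM per kb (ORC3), and ORC1 was no longer the highest of the 6. Its rank differed between the METTL14 libraries. At 6.38 CPM per kb in replicate 1 it lay above ORC2 (6.35) and ORC5 (6.14). At 5.88 CPM per kb in replicate 2 it lay below both (6.41 and 6.86). The length-scaled ratio of ORC1 to ORC2 was 3.23 and 2.25 in control libraries and 1 and 0.919 with METTL14.

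Of the helicase loaders, CDC6, the ATPase that bridges ORC and the MCM ring (ENSG00000094804, GRCh38 chromosome 17, 40287633 to 40304657, plus strand), had 177.7 and 163.2 CPM in control libraries and 41.46 and 38.58 CPM with METTL14, a 4.26-fold fall (log2 fold change -2.09, SE 0.106). CDT1, which delivers the ring, had 88.12 and 56.81 CPM against 34.53 and 35.62 CPM (-1.05, SE 0.197). As a log2 ratio its controls differed more than those of any other of the 56 genes (0.63), yet the lower control lay above both METTL14 libraries. GMNN, which binds and blocks CDT1, had 40.57 and 40.08 CPM against 15.82 and 14.08 CPM (-1.43, SE 0.122). The length-scaled ratio of CDT1 to GMNN was 0.846 and 0.552 in control libraries and 0.85 and 0.985 with METTL14, so control replicate 1 lay level with METTL14 replicate 1.

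The 6 subunits of the MCM2-7 ring, the motor of the replicative helicase, had a median log2 fold change of -2.14. MCM5 (ENSG00000100297, GRCh38 chromosome 22, 35400063 to 35425430, plus strand) stood at 298.5 and 202.8 CPM in control libraries and 43.77 and 44.71 CPM with METTL14 (log2 fold change -2.50, SE 0.185, edgeR adjusted p = 0.000117). MCM2 stood at 529 and 354.1 CPM against 96.07 and 80.28 CPM (-2.32, SE 0.2), and MCM4 at 547.5 and 428.5 CPM against 99.52 and 99.8 CPM (-2.29, SE 0.137). In these 3 genes the fall was more than 4-fold and the METTL14 libraries differed less than the controls did. MCM7, the most abundant of the 6 per length, went from 749.2 and 549.5 CPM to 170.1 and 157.7 CPM (-1.99, SE 0.157). MCM3 went from 412.3 and 300.8 CPM to 100.7 and 98.91 CPM (-1.84, SE 0.156), and MCM6 from 247.6 and 211.2 CPM to 79.12 and 76.08 CPM (-1.56, SE 0.114). The subunits join the ring in equal number, but their mRNA levels were unequal: mean levels in the controls ran from 61.4 CPM per kb (MCM6) to 220 CPM per kb (MCM7). With METTL14 they ran from 12.5 CPM per kb (MCM5) to 55.4 CPM per kb (MCM7), and MCM5 had passed below MCM6. MCM7 shares 8.94% of its exon bases with AP4M1 on the opposite strand, which leaves its counts less certain.

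**Figure D2:**
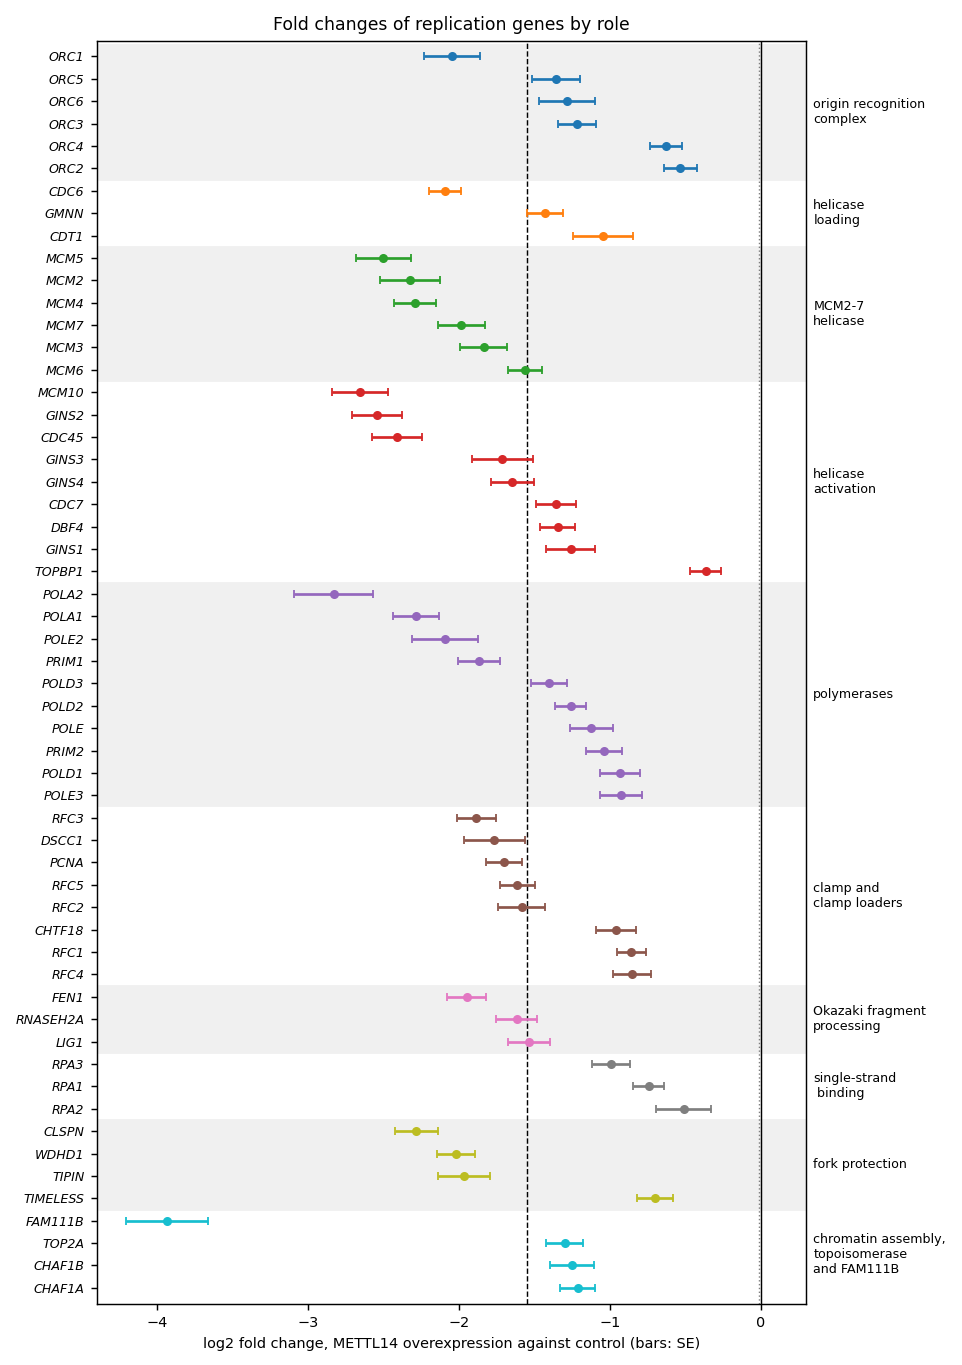
Log2 fold change of each gene, METTL14 overexpression against control, with its SE as bars. The dashed line is the median of the 56 genes (-1.55) and the dotted line that of all tested genes (-0.01). Some genes lie apart from the others of their role. Those with smaller falls are ORC2, ORC4, TOPBP1 and TIMELESS, and those with larger falls include ORC1 (-2.05) and FAM111B (-3.94).

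Among the factors that activate the loaded ring, MCM10 (ENSG00000065328, GRCh38 chromosome 10, 13161554 to 13211104, plus strand), a fork scaffold, had 83.8 and 63.07 CPM in control libraries and 10.22 and 12.99 CPM with METTL14 (log2 fold change -2.66, SE 0.185, edgeR adjusted p = 9.94e-05). GINS2 had 57.12 and 43.57 CPM against 8.374 and 8.893 CPM (-2.54, SE 0.167), and CDC45 had 127.5 and 92.53 CPM against 20.55 and 20.85 CPM (-2.41, SE 0.166). These 3 genes each fell more than 5-fold. In each, both METTL14 libraries lay below both controls, as they did in 40.0% of tested genes. The other GINS subunits, which join GINS2 in 1 complex of 4 proteins, had log2 fold changes of -1.71 (GINS3), -1.65 (GINS4) and -1.26 (GINS1). CDC7 had 47.86 and 55.73 CPM against 19.01 and 21.44 CPM (-1.36, SE 0.132), and DBF4, its activator, 48.79 and 50.55 CPM against 18.8 and 20.21 CPM (-1.35, SE 0.113). The kinase and its activator thus had near equal fold changes, and their length-scaled ratio (DBF4 to CDC7) stayed between 0.769 and 0.865 in the 4 libraries. TOPBP1, which helps to place CDC45 and also activates the checkpoint kinase ATR, had 95.19 and 106.4 CPM against 77.22 and 79.2 CPM, with the smallest change of the 56 genes (-0.37, SE 0.102, edgeR adjusted p = 0.0189). Without METTL14 replicate 1 its adjusted p was 0.222 and without replicate 2 it was 0.16.

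All 10 polymerase genes of the set were lower, with log2 fold changes of -2.83 to -0.93. The median log2 fold change was -2.08 over the 4 genes of polymerase alpha and primase, which start each new strand. That value depends on POLA2, which had -2.83 in the row taken but -1.82 with its rows summed. For polymerase delta the median was -1.26 over the 3 genes taken (POLD1, POLD2 and POLD3). For polymerase epsilon it was -1.12 over the 3 taken (POLE, POLE2 and POLE3). Their subunits POLD4 and POLE4 were placed among the further replication genes (listed below) and are not in these medians. POLD4 was called higher (0.75, SE 0.138) and POLE4 lower (-1.05, SE 0.213). Single genes also crossed these classes, as PRIM2 and POLE2 show. POLA1, the catalytic subunit of alpha, had 46.19 and 41.67 CPM in control libraries and 10.07 and 7.954 CPM with METTL14 (-2.29, SE 0.152). PRIM1, the catalytic primase subunit, had 40.26 and 34.69 CPM against 9.813 and 10.67 CPM (-1.87, SE 0.138), and PRIM2, its partner, 30.22 and 29.71 CPM against 14.54 and 14.62 CPM (-1.04, SE 0.119). In all 3 the groups were far apart, and the METTL14 replicates of POLA1 differed more than those of PRIM1 and PRIM2. POLE, the catalytic subunit of the leading-strand enzyme, went from 89.31 and 71.08 CPM to 39.61 and 33.99 CPM (-1.12, SE 0.144), and its subunit POLE2 from 16.59 and 14.42 CPM to 4.316 and 2.964 CPM (-2.09, SE 0.219). Log2 fold changes were -0.93, -1.26 and -1.40 for POLD1, POLD2 and POLD3 of the lagging-strand enzyme and -0.93 for POLE3, which also belongs to a chromatin remodeller. The length-scaled ratio of POLA1 to POLE was 0.739 and 0.838 in control libraries and 0.363 and 0.334 with METTL14. No test compared the classes with each other.

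POLA2, the second subunit of polymerase alpha, is uncertain because 2 gene rows carry its symbol. The row taken held 1295.76 and 917.96 control counts against 117.34 and 203.15 counts with METTL14 (log2 fold change -2.83, SE 0.264). The other row, a readthrough of POLA2 into CDC42EP2 that covers 35.14% of its exon bases, had 848.86 and 611.55 counts against 416.11 and 335.08 counts (-0.995, SE 0.198, edgeR adjusted p = 0.00445). Summed, the rows gave -1.82 (edgeR adjusted p = 0.000236). POLA2 was lower in each form, but the size of its fall depends on how reads were divided between the rows.

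**Figure D3:**
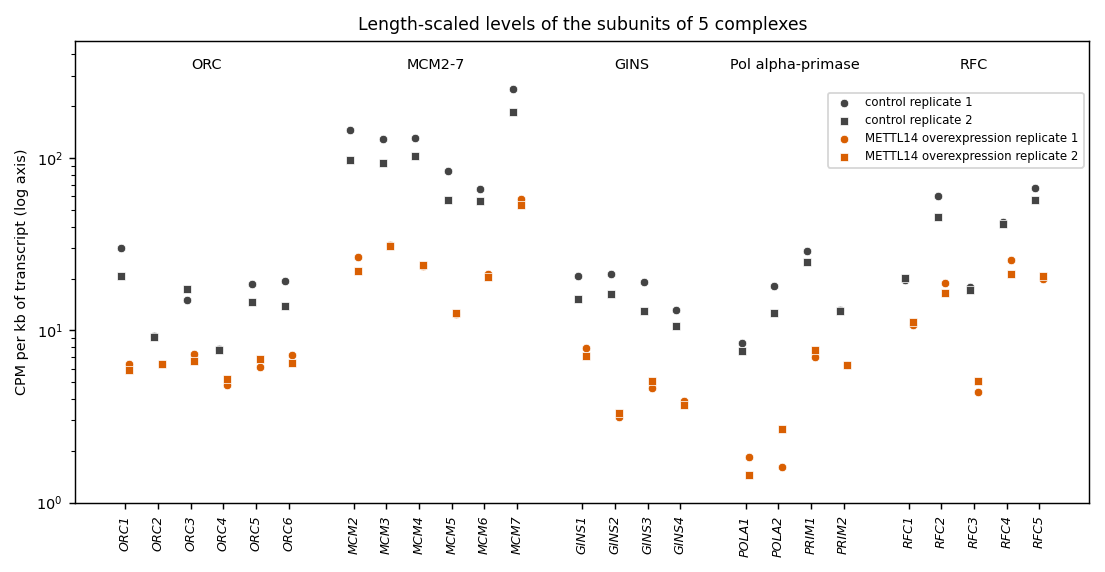
Length-scaled level (CPM per kb of transcript, log axis) of the subunits of 5 complexes in each control (dark) and METTL14 (orange) library. MCM7 is the highest of the subunits plotted in both groups, and the ORC subunits sit closer together with METTL14 than in the controls.

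PCNA, the ring that tethers polymerases to DNA, had 299.4 and 250.4 CPM in control libraries and 85.18 and 83.64 CPM with METTL14, a 3.26-fold fall (log2 fold change -1.70, SE 0.118). Its loader is built of RFC1 and the small subunits RFC2 to RFC5. RFC3 fell most, from 43.17 and 41.16 CPM to 10.58 and 12.2 CPM (-1.89, SE 0.129), while RFC5 and RFC2 had log2 fold changes of -1.61 and -1.58, and RFC1 and RFC4 of -0.86 and -0.85. For RFC4 the values were 61.9 and 60.4 CPM against 36.99 and 30.73 CPM. DSCC1 and CHTF18, parts of the alternative loader that acts in sister chromatid cohesion, had log2 fold changes of -1.77 and -0.96. The 5 RFC subunits thus differed by more than 1 log2 unit among themselves, several times their SEs of 0.096 to 0.155, though no test set one gene against another.

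The 3 genes of Okazaki fragment maturation were all lower. FEN1, the flap nuclease, had 147.2 and 119.4 CPM in control libraries and 34.94 and 33.99 CPM with METTL14 (-1.95, SE 0.128). LIG1, the ligase that seals the nicks, had 71.26 and 57.38 CPM against 22.61 and 21.74 CPM (-1.54, SE 0.137), and RNASEH2A, which removes ribonucleotides, 125 and 102.5 CPM against 39.92 and 34.24 CPM (-1.62, SE 0.136). FEN1 shares 6.7% of its exon bases with TMEM258 and RNASEH2A 30.81% with THSD8, the latter at a mean of only 4.3 counts.

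RPA, the trimer that coats single-stranded DNA in replication and repair, had the smallest median of any role (-0.74). RPA1 stood at 218.9 and 193.9 CPM against 125.5 and 120.9 CPM (-0.74, SE 0.105), and RPA3 at 39.95 and 34.64 CPM against 19.52 and 17.93 CPM (-0.99, SE 0.129). RPA2 (GRCh38 chromosome 1, 27891524 to 27914746, minus strand) stood at 76.1 and 51.32 CPM against 46.8 and 42.59 CPM (-0.51, SE 0.183, edgeR adjusted p = 0.0473). Control replicate 2 of RPA2 lay closer to the METTL14 libraries than to the other control. Without control replicate 1 the log2 fold change of RPA2 was -0.20 (edgeR adjusted p = 0.0526), and without METTL14 replicate 2 it was -0.45 (0.101), so its call rests on single libraries. It was also lost with limma-voom, with other scalings and with a stricter filter.

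Of the genes that protect the fork, CLSPN, the adaptor through which ATR activates CHEK1, stood at 77.61 and 62.82 CPM in control libraries and 14.95 and 13.88 CPM with METTL14 (-2.28, SE 0.143). TIMELESS and TIPIN form a pair at the fork but moved by different amounts. TIPIN stood at 32.04 and 24.58 CPM against 7.09 and 7.361 CPM (-1.97, SE 0.173), and TIMELESS at 136.6 and 111.7 CPM against 75.63 and 76.82 CPM (-0.70, SE 0.121). WDHD1, which links polymerase alpha to the helicase, had a log2 fold change of -2.02 (SE 0.125).

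Of the remaining genes, FAM111B (ENSG00000189057, GRCh38 chromosome 11, 59107185 to 59127410, plus strand), which encodes a serine protease, was counted 272 and 239 times in the controls but 21 and 13 times with METTL14. At 14.15 and 12.27 CPM against 1.079 and 0.6423 CPM it showed the largest fall of the 56, 15.3-fold (log2 fold change -3.94, SE 0.274, edgeR adjusted p = 9.94e-05), and 0.03% of tested genes fell further. With so few counts the METTL14 libraries fix the size of that fall poorly, and without FAM111B the median of the other 55 genes was -1.54. CHAF1A and CHAF1B, the histone chaperone that rebuilds nucleosomes behind the fork, had log2 fold changes of -1.22 and -1.25. TOP2A, the topoisomerase that untangles daughter DNA and peaks later in the cycle, had 424.1 and 513.6 CPM against 181.4 and 199.2 CPM (-1.30, SE 0.124).

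The controls differed from each other in one direction. In control replicate 1, 50 of the 56 genes were higher than in replicate 2, with a median log2 ratio of 0.29. Among all tested genes 48.9% were higher there, and among 35 further replication genes (listed below) 74.3%, with a median of 0.13. The controls also differed more over all genes: the chi-square per degree of freedom between replicates was 28.77 for the controls and 3.288 for METTL14. The genes lower in control replicate 1 were ORC3, CDC7, DBF4, RFC1, TOPBP1 and TOP2A. The largest ratios were those of CDT1 (0.63), DSCC1 (0.59), MCM2 (0.58) and RPA2 (0.57). Between the METTL14 replicates 30 of the 56 were higher in replicate 1, with a median of 0.03, and 52.0% of tested genes were. The median fall of the 56 genes was -1.42 without control replicate 1 and -1.68 without control replicate 2, against -1.55 with both. In the median of the 56 genes either control therefore lay far above the METTL14 libraries. The choice of control moved the size of that median fall rather than its direction. Single genes lay closer, as RPA2 did at 51.32 CPM in control replicate 2 and 46.8 CPM in METTL14 replicate 1.

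**Figure D4:**
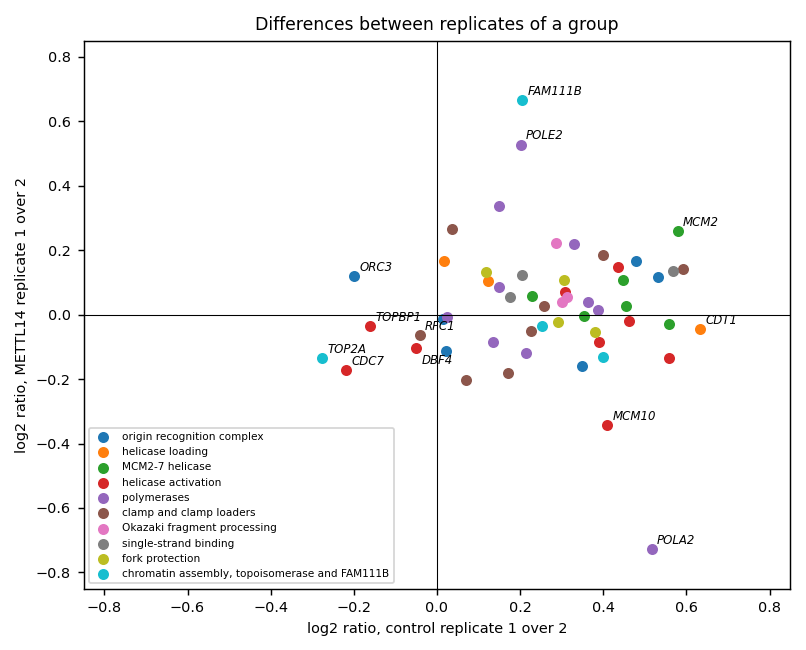
Log2 ratio of replicate 1 to replicate 2 for each of the 56 genes, in the controls (horizontal axis) and with METTL14 (vertical axis), coloured by role. Most points (50 of 56) lie right of 0, while they spread to both sides of 0 on the vertical axis, with POLA2, FAM111B and POLE2 farthest out.

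The 12 genes with an E2F-type match upstream had a median log2 fold change of -1.77, and the 36 promoters without one a median of -1.35. Over all tested promoters, genes with an E2F-type match had a median of -0.20 and 38.3% were called lower, against -0.03 and 28.9% without. Other motifs showed such differences too. With and without the motif, 37.3% and 28.6% were called lower for TTTGAA, and 33.2% and 27.2% for the CCAAT box. For the GC box the shares were 28.4% and 31.2%. Members with a CCAAT box had a median of -1.61, against -1.36 without. None of these contrasts was tested. Genes without an E2F-type match in this window included MCM10, CDC45, MCM2, CLSPN and CDC6, which were among those that fell most. By level, the 28 genes of lower mean in the controls (13.21 to 64.32 CPM) had a median of -1.42 and the 28 of higher mean (70.21 to 649.4 CPM) one of -1.60.

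Of a list of 35 further replication genes, 26 were lower, 2 higher and 7 not called, with a median of -0.85, where 28.1% of all tested genes were lower and 27.0% higher. ESCO2, which acetylates cohesin in S phase, went from 22.7 to 3.55 mean CPM (log2 fold change -2.67), and DNA2, a nuclease of long flaps, from 40.51 to 10.33 mean CPM (-1.97). UHRF1, which guides maintenance methylation to new DNA, went from 175.8 to 38.63 (-2.19), and the histone chaperone ASF1B from 178.4 to 63.35 (-1.49). SUPT16H of the FACT chaperone (-1.15) and SLBP, the histone mRNA binding protein (-0.96), fell too. Higher were POLD4, the small subunit of polymerase delta (14.52 to 24.38 mean CPM, log2 fold change 0.75, SE 0.138, edgeR adjusted p = 0.00328), and POLG, the mitochondrial polymerase (44.21 to 60.8 mean CPM, 0.46, edgeR adjusted p = 0.0262). POLD4 thus moved opposite to POLD1, POLD2 and POLD3. FAM111A, the paralog of FAM111B, had 7.647 and 9.084 CPM against 6.73 and 8.992 CPM (-0.09, edgeR adjusted p = 0.74).

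Of 20 genes of the fork checkpoint and of fork remodelling, 14 were lower, 1 higher and 5 not called, with a median of -0.74, beside the same 28.1% and 27.0% of all tested genes. EXO1 (-2.28), CDC25A (-1.98), MMS22L (-1.70), RAD18 (-1.64), CHEK1 (-1.30) and ATRIP (-1.28) were lower. RAD9A, a subunit of the checkpoint clamp, was higher (14.07 to 20.1 mean CPM, log2 fold change 0.51, edgeR adjusted p = 0.038). WEE1 (-0.07), HLTF (-0.28), SMARCAL1 (0.07), RAD17 (0.12) and MUS81 (0.17) were not called. These lists have members on either side of 0, while the 56 genes had none above it. The 56 genes and the lists were chosen with earlier results of these data known. This contrast therefore describes the lists as drawn and was not tested.

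**Figure D5:**
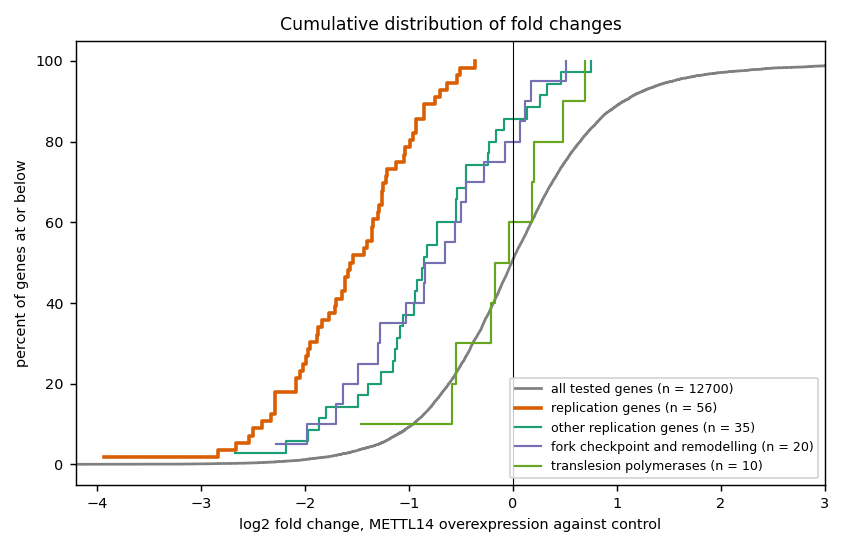
Cumulative percentage of genes at or below each log2 fold change, for all 12700 tested genes, the 56 replication genes and 3 further gene lists. The curve of the 56 genes ends at -0.37 (TOPBP1), left of 0, and the lists of further replication genes and of checkpoint genes lie between it and all tested genes.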

How the data were processed

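Poly(A) RNA libraries of 4 samples were grouped by their titles (2 control, 2 METTL14 overexpression). RSEM, StringTie, HISAT2, Bowtie2 and fastp, and the build hg18, are named in the submitters' processing notes. Not given in the sources used here are their roles, their versions and the strand setting. The authors deposited expected counts of each gene, unnormalized and with 10.8 to 11.6% of values not whole, which were rounded here. Of the gene IDs, 20171 of 20323 are in GENCODE release 29 (GRCh38), used for positions, exon overlap and the length of the longest APPRIS principal transcript. The build behind the counts is unclear. Of the 56 genes, 17 share exon bases with another gene row, 6 of them at least 5%, and these counts are less certain.

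The groups were compared with the robust quasi-likelihood test of edgeR 4.0.16 under R 4.3.3, after filterByExpr at a minimum count of 10 and TMM scaling, adjusted by Benjamini-Hochberg over 12700 genes at 0.05. Each SE is approximate, the log2 fold change over the root of F. An exact test over 2 against 2 libraries cannot reach 0.05, so p-values rest on a spread shared over genes. Ratios between replicates are of log2 CPM with a prior count of 2. The members and lists were chosen with earlier results of these data known, and any of the 56 genes could be named, as could in each further list the 6 smallest p and those that moved against the majority, while others are named after their values were seen. Promoters were to be printed for 5 roles, but 3 had a window clear of exons. On simulated counts for this comparison (12581 genes), 52% of 1.5-fold, 78% of 2-fold, 98% of 4-fold and 100% of 8-fold changes were recovered. Of 173 calls, 10 were on unchanged genes. In the simulation few genes were changed, and both groups were drawn with the same spread. In the data 55.1% of tested genes were called, so these rates need not hold here. Alternatives tried were limma-voom (limma 3.58.1), DESeq2 1.42.0, DESeq2 size factors in edgeR, library totals, other filters, no robust step, glmTreat against 1.5-fold, replicate number as a term and leaving out each library. A fit with trends on GC content and length taken out, and one with the POLA2 rows summed, were chosen after seeing the data. Other calculations used Python 3.11.15, numpy 2.4.6 and pandas 2.3.3.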

Additional observations from a re-analysis of the deposited data

How the results depend on the processing

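In each alternative all 56 replication genes kept a negative log2 fold change, and between 53 and 56 of them were called lower, except that 50 were with glmTreat against 1.5-fold. Their median ran from -1.68 to -1.42. RPA2 was not called with limma-voom, DESeq2 size factors, library totals, a filter of 5 CPM, the length and GC trend removed, and without control replicate 1 or METTL14 replicate 2, and ORC2 and TOPBP1 were not without either METTL14 library. Against 1.5-fold, 1357 of all genes were lower and 1416 higher, and 1 of the 3 RPA genes was lower. Leaving out single libraries gave 2307 to 4575 lower genes among all tested, the lowest without METTL14 replicate 1. Library totals moved the median of all genes to 0.04. Replicate numbers are shared by the groups, but nothing says that they pair libraries (correlation of replicate differences 0.04). With the replicate block, 56 replication genes were lower, of 3903 lower and 3797 higher genes. Levels of genes near 1 CPM, such as FAM111B with METTL14, are limited by depth.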

Other observations

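Translesion and repair polymerases, which copy damaged DNA or fill short gaps, were called about as often as all tested genes. Of 11 listed, 10 were tested, and 3 were lower, 2 higher and 5 not called, with a median log2 fold change of -0.10, where 28.1% of all tested genes were lower and 27.0% higher. POLQ, the polymerase of microhomology-mediated end joining, had 16.96 and 19.04 CPM in the controls and 6.782 and 6.274 CPM with METTL14 (log2 fold change -1.46, SE 0.156, edgeR adjusted p = 0.000333). REV3L, the catalytic subunit of polymerase zeta, and POLK were lower too (-0.58 and -0.54). POLL (21.03 to 34.13 mean CPM, 0.70) and POLB, the gap-filling polymerase of base excision repair (34.29 to 47.81 mean CPM, 0.48), were higher.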
